A study of Mus musculus with 6 samples.

Results

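The 2′-5′-oligoadenylate synthetase (OAS) family was followed in the RNA sequencing of peritoneal macrophages (PEMs) of *Tim-4* knockout and control mice. The members were the 6 genes *Oas1a*, *Oas1g*, *Oas2*, *Oas3*, *Oasl1* and *Oasl2*, taken by their symbols from a table of 15415 genes. Of these, 9030 genes, all 6 members among them, had a mean of at least 1 FPKM (reads scaled to the length of the gene and to the reads of the library) in one group and were tested. The 6 libraries came from PEMs, macrophages drawn to the peritoneal cavity by an injection of starch and then collected from it. The genotype of the 3 knockout libraries was LysM-Cre; *Tim-4* fl/fl, where Cre made from the lysozyme locus *Lyz2* removes the floxed *Tim-4* from myeloid cells, and that of the 3 control libraries was *Tim-4* fl/fl without Cre. All 6 were labelled as treated with LPS, so an unstimulated level is not at hand, and whether each library is 1 mouse is not given. The study's methods describe the mice of its experiments as young adult males. The titles of the libraries set the groups here. The genotype entry of the labels is the reverse of the titles.

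OAS enzymes sense double-stranded RNA, a product of many viral infections, and then join ATP into oligoadenylates with 2′-5′ links. These act as messengers of the antiviral response and are broken down again by phosphodiesterases. Transcription of the family is driven by interferon, which macrophages make when LPS engages TLR4, through a complex with STAT2 and IRF9 among its subunits, which binds the interferon-stimulated response element of its target genes. The OAS-like proteins *Oasl1* and *Oasl2* carry ubiquitin-like domains besides. Mouse *Oasl1* lacks synthetase activity and is known as a repressor of *Irf7* translation, whereas *Oasl2* is an active enzyme.

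The family lies on mouse chromosome 5 in 2 places, by the gene order of RefSeq (GRCm38.p6). *Oas2*, *Oas3*, *Oas1g* and *Oas1a* belong to a single cluster with further *Oas1* copies among them, and *Oasl2* and *Oasl1* lie apart from it with the long non-coding gene *Gm13822* between them. The stretches before the start sites of *Oas1a*, *Oas1g* and *Oas3* are shown because they hold the core of the interferon-stimulated response element, searched as GAAA, any 2 bases and GAAA on both strands. Each is the 120 bases that end at the base before the RefSeq start site, read 5′ to 3′ along the gene (minus strand), with the matches in capitals. They lie at chr5:120907526-120907645 for *Oas1a*, chr5:120887614-120887733 for *Oas1g* and chr5:120777660-120777779 for *Oas3* in GRCm38.p6.
Oas1a: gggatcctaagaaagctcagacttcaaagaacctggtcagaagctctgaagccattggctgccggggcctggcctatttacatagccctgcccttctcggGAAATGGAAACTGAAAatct
Oas1g: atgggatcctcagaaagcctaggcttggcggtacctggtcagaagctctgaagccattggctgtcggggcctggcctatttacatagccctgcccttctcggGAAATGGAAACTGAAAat
Oas3: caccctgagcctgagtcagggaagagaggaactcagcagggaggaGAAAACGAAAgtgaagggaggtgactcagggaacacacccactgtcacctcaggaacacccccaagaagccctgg

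*Oas1a* and *Oas1g* each held 2 matches that overlap by their middle GAAA, and the 2 genes were identical over a run of 73 bases that starts at base -58 of *Oas1a* and base -56 of *Oas1g*, counted back from the start site, and continues past the start site beyond the bases shown. *Oas3* held 1 match, at bases -75 to -66. *Oas1c*, a further copy that is no member, held 2 overlapping matches on the opposite strand, at bases -114 to -105 and -108 to -99. The search covered the 300 bases from 250 before to 50 after each start, an entry for which was matched for 5 of the 6 members, and in which *Oasl1* and *Oasl2* had no match. *Oas2* is named only. Among all 32851 windows of this kind, 1131 (3.44%) held at least 1 match. A match describes letters and was not tested as a binding site.

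The libraries were of like depth, with 36170767 to 42217558 reads recovered on the listed genes, and the macrophage markers *Adgre1*, *Cd68*, *Csf1r* and *Itgam* were abundant in every library. Another macrophage marker of the same list, *Mertk*, was low. It was at 6.36, 3.55 and 0.821 FPKM in controls 1 to 3 and at 6.15, 12.1 and 5.08 FPKM in knockout libraries 1 to 3. *Timd4*, the gene of Tim-4, measured 19.5, 12.05 and 1.19 FPKM in controls 1 to 3 against 0.333, 0.394 and 0.246 FPKM after the knockout (log2 fold change -2.66, adjusted p = 0.0715 in limma and 0.0436 with the replicate block described with the processing). The groups did not overlap, but control library 3 stood far below the other controls. *Lyz2*, the locus that carries Cre, ranged from 7090 to 8482 FPKM among the controls, while knockout libraries 1, 2 and 3 held 41.4, 4656 and 106 FPKM, so knockout library 2 stood apart in this gene. Without knockout library 2 the log2 fold changes of the 6 members lay between 0.39 and 1.11 and none was called in limma (4 at an unadjusted p below 0.05). Over all genes tested in that fit, 63 were called and 1436 had an unadjusted p below 0.05, in either direction.

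The 6 members differed widely in level, and their order was nearly the same in every library. *Oasl1* was the most abundant per length, followed by *Oasl2*, *Oas1a*, *Oas3*, *Oas2* and *Oas1g*, and each step of this order held in 6 of 6 libraries except that between *Oas3* and *Oas2*. *Oas3* was above *Oas2* in all 3 knockout libraries and in 1 of the 3 controls. *Oasl1* alone took 56.4% ± 4.32 (SD, n = 3) of the summed FPKM of the 6 members in the controls and 48.4% ± 1.77 (SD, n = 3) in the knockout libraries. The sum itself was 1137, 758 and 440 FPKM in control libraries 1 to 3 and 1247, 1208 and 1012 FPKM in the knockout libraries. Control library 1 reached into the knockout range, and the difference of the sums had an exact permutation p of 0.2 (two-sided, and 0.1 is the smallest that 3 against 3 allow). This test takes no account of the replicate numbers. The knockout sum was the higher in 3 of 3 pairs of the same number. That count was not tested, 3 pairs are few, and the pairing rests on the data alone.

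**Figure D1:**
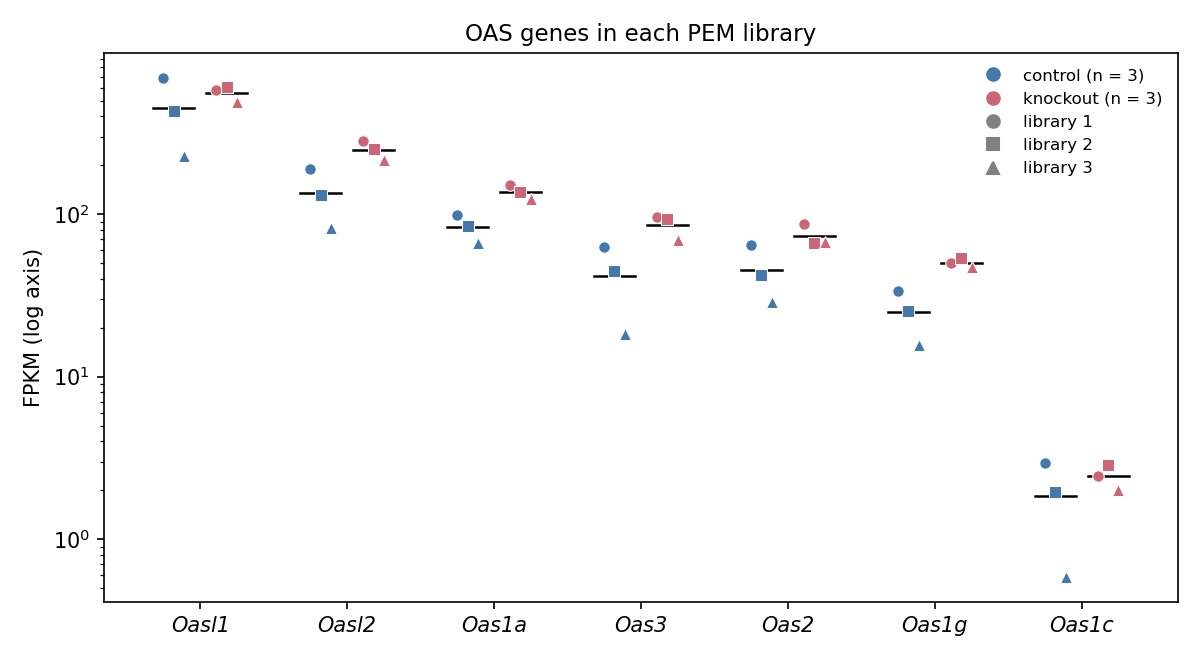
FPKM on a log axis of the 6 OAS members and *Oas1c* in each library; circles, squares and triangles are libraries 1, 2 and 3 of a group and black lines are group means. For 5 of the 6 members all knockout libraries lie above all controls, and *Oasl1* and *Oas1c* overlap.

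In 5 of the 6 members, all but *Oasl1*, the lowest knockout library exceeded the highest control library. Over all tested genes this was so in 11.1%. The 6 log2 fold changes were all positive (36.5% over all genes tested), from 0.45 to 1.17 with a median of 0.86, whereas the median over all genes tested was -0.11. In limma none of the 6 passed an adjusted p of 0.05, a threshold that 2.57% of all tested genes passed upward, while 5 of the 6 had an unadjusted p below 0.05 with a positive change (9.93% of all genes), and voom on the recovered reads called none either. With the replicate number as a block 4 of the 6 passed upward, *Oas1a*, *Oas1g*, *Oas3* and *Oasl2*, against 3.9% of all genes. A different number of cells of a type and a different amount of RNA per cell cannot be told apart in these libraries.

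*Oas1a* (Entrez 246730), an interferon-induced synthetase, was at 98.8, 84.2 and 66.1 FPKM in control libraries 1 to 3 and at 151.4, 136.9 and 123.7 FPKM in the knockout libraries. The lowest knockout library was above the highest control, and the means of 83.0 ± 16.4 and 137.4 ± 13.9 FPKM (SD, n = 3 each) gave a ratio of 1.65. The log2 fold change was 0.73 (standard error 0.18, 95% confidence interval 0.32 to 1.15), with an adjusted p of 0.0509 in limma, just short of the threshold, and of 0.0332 with the block. It passed as well without control library 1 (0.0371) and without control library 3 (0.0423), the control with the least *Timd4*, but not without control library 2 (0.154) or knockout library 1, 2 or 3 (0.193, 0.192 and 0.0745), and so in 3 of the 13 fits. Relative to its mean, *Oas1a* had the smallest spread among the controls of all 6 members.

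*Oas1g* (Entrez 23960), a neighbour of *Oas1a* and likewise a synthetase, was at 33.5, 25.5 and 15.7 FPKM in the controls and at 49.7, 53.5 and 47.5 FPKM in the knockout libraries. The means differed 2.02-fold, at 24.9 ± 8.90 and 50.2 ± 3.02 FPKM (SD, n = 3 each), and the groups did not overlap. The log2 fold change of 1.05 (standard error 0.25, 95% confidence interval 0.45 to 1.64) had an adjusted p of 0.0525 in limma and of 0.0379 with the block. Like *Oas1a*, it passed without control library 1 (0.0300) and without control library 3 (0.0219), not without control library 2 (0.160) or knockout library 1, 2 or 3 (0.169, 0.199 and 0.0963), and so in 3 of the 13 fits. The transcripts of these 2 genes share much of their sequence. Of the 1836 windows of 50 bases in the longest *Oas1a* transcript of GENCODE M21, 1044 (56.9%) occur unchanged in *Oas1g*, and the same 1044 make up 54.1% of the windows of *Oas1g*. How such reads were divided is not given in the sources used here, so the division between the 2 genes is uncertain. Their summed FPKM, which such a division moves only through the lengths of 1947 and 2008 bases the values were divided by, was 132, 110 and 81.8 in the controls and 201, 190 and 171 in the knockout libraries, a log2 difference of 0.82 without overlap (exact permutation p = 0.1, two-sided). *Oas2*, *Oas3*, *Oasl1* and *Oasl2* shared 0 windows of this length with any other OAS gene.

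*Oas2* (Entrez 246728) and *Oas3* (Entrez 246727) encode the larger synthetases, in which the enzyme domain is repeated. *Oas2* was at 64.5, 42.0 and 28.8 FPKM in control libraries 1 to 3 and at 86.5, 66.6 and 67.7 FPKM in the knockout libraries, so the groups were parted by a narrow gap between control library 1 and knockout library 2. Its log2 fold change was 0.76 (standard error 0.28, 95% confidence interval 0.10 to 1.42), which passed neither without the block (adjusted p = 0.137 in limma) nor with it (0.0602), and passed in 1 of the 13 fits, that without control library 1 (0.0384). *Oas3* was at 62.4, 44.8 and 18.4 FPKM in the controls and at 95.7, 92.8 and 69.7 FPKM in the knockout libraries. This was the largest log2 fold change of the members, 1.17 (standard error 0.41, 95% confidence interval 0.21 to 2.13), and its standard error was also the largest. The adjusted p of *Oas3* was 0.121 in limma and 0.0438 with the block, and 0.0492 without control library 1, and it passed in no other of the 13 fits than these last 2. Without control library 3, the lowest, the log2 fold changes of *Oas2* and *Oas3* were smaller, at 0.48 and 0.68.

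Of the OAS-like pair, *Oasl2* held the groups apart and *Oasl1* did not. *Oasl2* (Entrez 23962) was at 189.6, 131.0 and 82.5 FPKM in the controls and at 281.1, 251.0 and 214.3 FPKM in the knockout libraries, all of them above the highest control. Its log2 fold change was 0.95 (standard error 0.29, 95% confidence interval 0.27 to 1.64), with an adjusted p of 0.0886 in limma, 0.0365 with the block and 0.0358 without control library 1, the only 2 of the 13 fits in which it passed. *Oasl1* (Entrez 231655) was at 688, 430 and 228 FPKM in the controls and at 583, 607 and 489 FPKM in the knockout libraries. Control library 1 was the highest of all 6 libraries, and the knockout libraries lay inside the range of the controls. The log2 fold change of 0.45 (standard error 0.37) had a 95% confidence interval from -0.41 to 1.31 and an adjusted p of 0.457 in limma, so the interval held both no change and a doubling. It was 0.03 without control library 3 and 0.83 without control library 1, and passed the threshold in none of the 13 fits. *Irf7*, whose translation *Oasl1* is known to repress, was at 239.8, 159.5 and 66.3 FPKM in the controls and at 319.8, 316.7 and 237.7 FPKM in the knockout libraries (log2 fold change 1.08, adjusted p = 0.160 in limma).

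**Figure D2:**
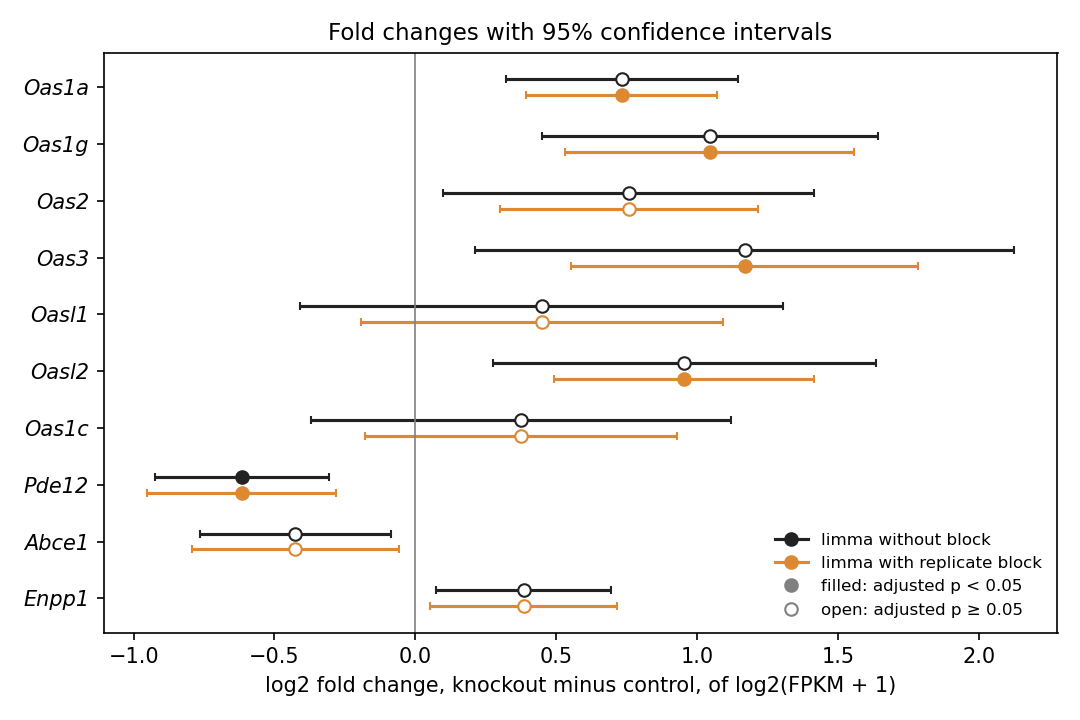
Log2 fold changes of log2(FPKM + 1), knockout minus control, with 95% confidence intervals from limma without (black) and with the replicate block (orange) over 3 libraries a group; filled points passed an adjusted p of 0.05. With the block 4 of the 6 members are filled, without it none is, and *Pde12* is filled on the negative side in both.

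The members were also compared with each other inside each library, where the depth and scaling of the library drop out. This comparison of the 15 pairs was chosen after the values had been seen. In 4 of the 15 pairs the log2 ratio of the knockout libraries did not overlap with that of the controls. Of these 4, 3 were among the 5 pairs that hold *Oasl1*, the member with the smallest log2 fold change. They are therefore no result separate from that fold change. The pairs share genes and so are not independent. How often pairs of other genes part the groups was not tested, so the count has no background share. *Oasl1* stood above *Oasl2* by 1.86, 1.72 and 1.47 on the log2 scale in control libraries 1 to 3 and by 1.05, 1.27 and 1.19 in the knockout libraries. Its lead was thus smaller in every knockout library, by 0.51 on average. *Oas3* was at -3.45 ± 0.19 relative to *Oasl1* in the controls and at -2.71 ± 0.10 in the knockout libraries (log2, SD, n = 3 each), a difference of 0.75. *Oas1g* was at -4.10 ± 0.25 relative to *Oasl1* in the controls against -3.47 ± 0.10, a difference of 0.63. Against *Oasl1*, *Oas1a* and *Oas2* differed by 0.29 and 0.32, with overlap. The fourth pair was *Oas2* relative to *Oasl2*, lower by 0.19 in the knockout libraries. Each of the 4 had an exact permutation p of 0.1 (two-sided), the smallest possible, and of 0.333 when adjusted over the 15 pairs by the Benjamini-Hochberg method, so none passed.

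**Figure D3:**
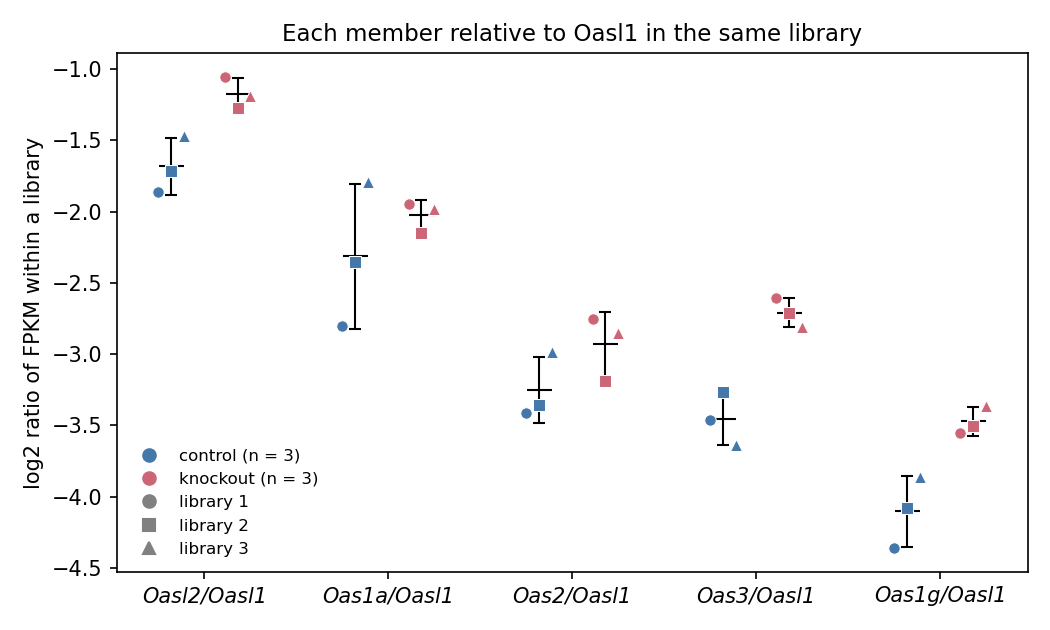
Log2 ratio of the FPKM of 5 members to *Oasl1* in the same library; points are libraries, and bars are mean ± SD over 3 libraries a group. The ratios of *Oasl2*, *Oas3* and *Oas1g* are higher in all 3 knockout libraries than in any control, while those of *Oas1a* and *Oas2* overlap.

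Of the other *Oas1* copies, *Oas1c* (Entrez 114643) was the only one analysed here. It was low, at 2.95, 1.95 and 0.585 FPKM in the controls and 2.45, 2.87 and 2.01 FPKM in the knockout libraries, from 49 to 281 reads. The groups overlapped, with a log2 fold change of 0.38 (95% confidence interval -0.37 to 1.12, adjusted p = 0.475 in limma), which was 0.01 without control library 3. *Oas1b*, *Oas1d*, *Oas1e*, *Oas1f* and *Oas1h* were not analysed here.

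Among further genes of the oligoadenylate pathway, *Pde12* (Entrez 211948), a phosphodiesterase that breaks down 2′-5′-oligoadenylates, fell. It was at 5.48, 7.04 and 6.17 FPKM in the controls and at 3.67, 3.49 and 3.94 FPKM in the knockout libraries. On the log2 scale it fell by 0.62 (95% confidence interval -0.92 to -0.31), with an adjusted p of 0.0372 in limma and of 0.0475 with the block, which 4.74% and 5.57% of all genes passed downward. All 3 knockout libraries were below all controls, as in 23.0% of the tested genes. The call was lost with a filter of 10 reads in every library (0.0506), with no filter at all (0.0675) and without control library 2 (0.132) or knockout library 1, 2 or 3 (0.149, 0.187 and 0.0689). *Abce1*, an ATPase of ribosome recycling, was at 36.6 ± 4.81 FPKM in the controls and 26.9 ± 2.50 FPKM in the knockout libraries (log2 fold change -0.43, adjusted p = 0.113 in limma). *Enpp1*, an ectonucleotidase, was at 1.36 ± 0.28 against 2.07 ± 0.14 FPKM (log2 fold change 0.38, adjusted p = 0.118 in limma), and *Akap7* stayed below 1 FPKM and was not tested. Of the 3 tested genes of this arm 1 was called, downward, and the list had a median log2 fold change of -0.43.

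Markers of other cells also differed between the groups. The summed FPKM of 3 B cell markers (*Cd79a*, *Cd79b* and *Ms4a1*) was 97.3, 65.6 and 23.9 in control libraries 1 to 3 and between 2.23 and 4.62 in the knockout libraries, with 3 of 3 called downward, as were 4.74% of all tested genes. The control libraries stood in the same order, 1 above 2 above 3, for these markers as for each of the 6 members. This order was not particular to B cell markers. It also held for the summed markers of large and small peritoneal macrophages, T cells and plasmacytoid dendritic cells. It did not hold for the summed markers of mast cells, neutrophils, macrophages, or mesothelial cells and fibroblasts. Markers of large peritoneal macrophages (*Gata6*, *Prg4*, *Timd4*, *Icam2*, *Selp* and *Cd5l*) summed to between 88.5 and 243.8 FPKM in the controls and between 9.999 and 20.5 FPKM in the knockout libraries, with 3 of 5 tested genes called downward. Mast cell markers, 4 of 4 called downward, summed to between 36.5 and 46.9 against between 1.58 and 2.01 FPKM. The summed macrophage markers overlapped, at 2231 to 2694 FPKM in the controls and 2617 to 2892 FPKM in the knockout libraries, with 0 of 7 called in limma and 3 at an unadjusted p below 0.05. The sum covered markers that parted the groups in opposite directions, since in all knockout libraries *Csf1r* (168.4 ± 14.9 against 105.1 ± 33.3 FPKM, controls first) and *Cd14* (556.3 ± 73.2 against 338.1 ± 72.2 FPKM) were below the controls, and *Cd68* (1091 ± 282 against 1642 ± 61.1 FPKM) and *Fcgr3* (42.2 ± 6.55 against 52.1 ± 1.70 FPKM) were above them (SD, n = 3 each). The part of the other cells in the OAS values was not tested.

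**Figure D4:**
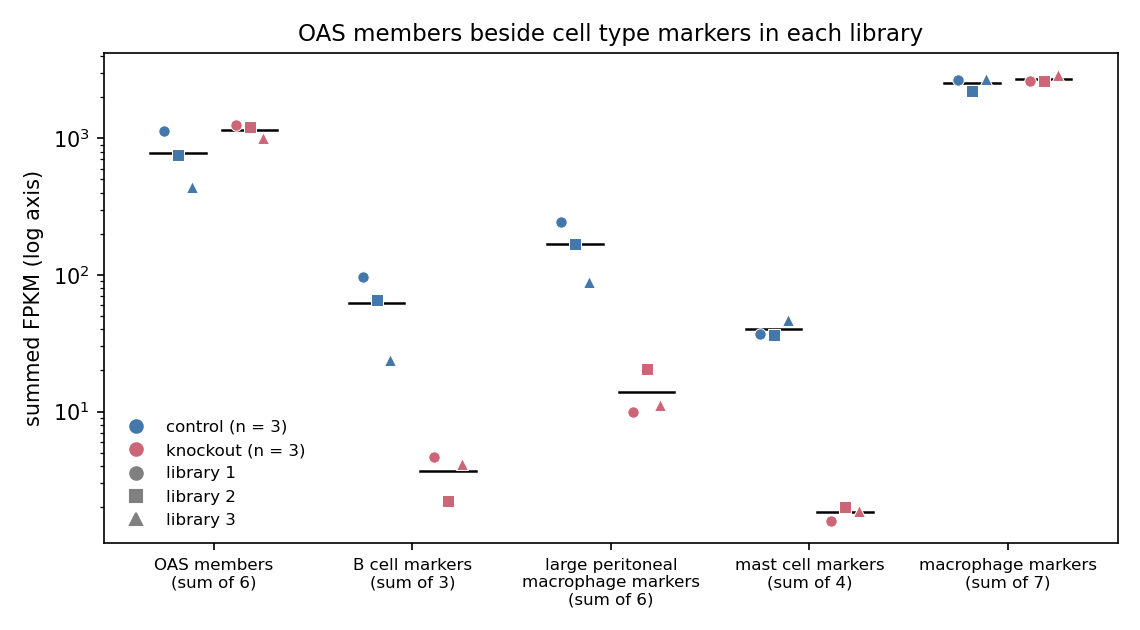
Summed FPKM of the 6 OAS members and of marker genes of B cells, large peritoneal macrophages, mast cells and macrophages in each library, on a log axis; shapes are libraries 1 to 3 and black lines are group means. The markers of B cells, large peritoneal macrophages and mast cells are lower in all knockout libraries than in any control, and the OAS sum and the macrophage markers overlap.

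Of the small peritoneal macrophage markers, 2 of 3 tested genes (*Retnla* and *Irf4*) were called downward, as were 4.74% of all tested genes. The sums were 264 to 3812 FPKM in the controls and 92.7 to 239 FPKM in the knockout libraries. *Retnla* alone was at 3428, 1507 and 98.5 FPKM in controls 1 to 3. The remaining tested marker, *H2-Ab1*, overlapped between the groups (log2 fold change -0.72, adjusted p = 0.315 in limma) and made up most of the knockout sums. T cell markers summed to at most 1.54 FPKM in any library and none was tested. Of the neutrophil markers 1 of 2 tested, *S100a8*, was called downward (4.74% of all tested genes), with sums of 158 to 171 against 40.8 to 71.7 FPKM. These sums were mostly *S100a8* in every library. The other tested marker, *S100a9*, overlapped between the groups (log2 fold change -0.42, adjusted p = 0.667 in limma), and *Cxcr2* and *Ngp* were below the filter. For plasmacytoid dendritic cells, which are rich in interferon-induced genes, 1 of 2 tested markers, *Ly6d*, was called downward, and *Siglech* was below 0.1 FPKM in every library. The sums of this list, 21.7 to 65.8 against 4.34 to 6.74 FPKM, were mostly *Ly6d* in the controls (61.2, 25.8 and 20.0 FPKM), and the other tested marker, *Tcf4*, overlapped between the groups (log2 fold change 0.26). Mesothelial and fibroblast markers had sums of 2.06 to 10.5 against 9.25 to 21.8 FPKM and 0 of 2 tested genes called in limma (1 at an unadjusted p below 0.05, and 1, *Col1a1*, with the block). Here, too, their part was not tested.

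The genes that stand beside the OAS family in the interferon pathway were described by lists. Of 11 sensors and adaptors of foreign nucleic acids, 9 had a positive log2 fold change (36.5% of all tested genes), with a median of 0.83. None was called in limma, 3 had an unadjusted p below 0.05 and a positive change (9.93% of all tested genes), and voom called none. With the block 1 was called upward (3.9% of all tested genes), *Cgas*, which makes a cyclic dinucleotide from DNA with an enzyme fold related to that of the synthetases. *Cgas* was at 5.97, 7.195 and 2.76 FPKM in the controls and at 12.4, 12.3 and 9.16 FPKM in the knockout libraries, a log2 fold change of 1.02 (adjusted p = 0.0769 in limma and 0.0277 with the block). *Eif2ak2*, the gene of the kinase PKR that also binds double-stranded RNA, was at 40.7 ± 18.2 against 68.7 ± 7.03 FPKM (SD, n = 3 each), and its log2 fold change was 0.85 (adjusted p = 0.162 in limma). The adaptors *Mavs* and *Ticam1* had log2 fold changes of -0.0012 and -0.05.

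Of 13 tested genes of interferon signaling, 12 had a positive log2 fold change, with a median of 0.17. Those called were *Irf1* and *Stat2*, both upward, 2 of 13 where 2.57% of all genes were called upward, and 36.5% of all genes had a positive change. *Irf1*, a transcription factor that also binds the response element, was at 75.3, 65.6 and 76.7 FPKM in the controls and at 187.1, 179.8 and 162.3 FPKM in the knockout libraries, a log2 fold change of 1.27 (adjusted p = 0.00651 in limma). The adjusted p of *Irf1* was 0.0549 without control library 2 and 0.0521 without knockout library 1. *Stat2*, a subunit of the complex that drives the OAS genes, was at 37.0 ± 13.9 against 86.4 ± 11.7 FPKM (SD, n = 3 each), and rose by 1.26 on the log2 scale (adjusted p = 0.0383 in limma). *Stat2* was not called without a filter on low values (0.0695), after rescaling (0.0525), or without control library 2 or knockout library 1, 2 or 3 (0.147, 0.152, 0.150 and 0.0663). *Irf9*, another subunit, overlapped between the groups (log2 fold change 0.17, adjusted p = 0.426 in limma). *Usp18*, a brake on interferon receptor signaling, was called with the block alone (log2 fold change 1.21, adjusted p = 0.126 in limma and 0.0459 with the block). *Ifnb1*, the gene of interferon beta, stayed below the filter. It was listed at 0.204 ± 0.01 FPKM in the controls and 0.853 ± 0.278 FPKM in the knockout libraries, without overlap. The receptor genes *Ifnar1* and *Ifnar2* had log2 fold changes of 0.10 and 0.01.

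Of 22 further interferon-induced antiviral genes 20 were analysed here. All 20 had a positive log2 fold change (36.5% of all tested genes), with a median of 0.84 close to that of the OAS members. In limma 1 passed upward (2.57% of all genes), *Parp14*, which rose by 0.79 on the log2 scale (adjusted p = 0.0279). An unadjusted p below 0.05 with a positive change was found in 15 (9.93% of all genes). The call of *Parp14* was lost without control library 2 (0.116), knockout library 1 (0.127) or knockout library 2 (0.129). With the block 8 passed, all upward (3.9% of all genes), among them *Ifit2*, *Rsad2* and *Cmpk2*, with log2 fold changes of 2.02, 1.66 and 1.61 (adjusted p = 0.0173, 0.0210 and 0.0290 with the block). In 14 of the 20 the lowest knockout library exceeded the highest control, as in 11.1% of all genes. The OAS members lay within the range of this list, from 0.49 to 2.02, apart from *Oasl1*, which was below it.

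**Figure D5:**
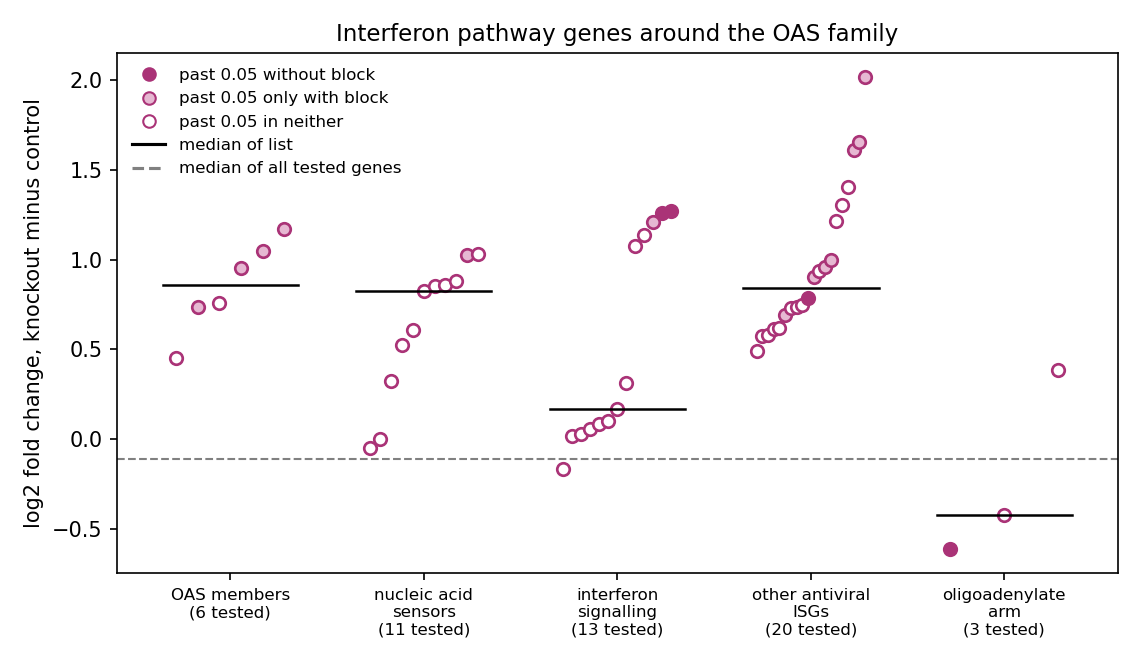
Log2 fold changes (knockout minus control, limma) of the tested genes of 5 lists, each point 1 gene; solid lines are list medians and the dashed line is the median of all 9030 tested genes, at -0.11. The OAS members, the sensors and the other interferon-induced genes have medians of 0.86, 0.83 and 0.84, and the oligoadenylate arm (*Pde12*, *Abce1* and *Enpp1*) has a median of -0.43.

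Across the 6 libraries the members kept close company. The Pearson correlation of each with the mean standardised profile of the 6, which includes the gene itself, was between 0.906 (*Oasl1*) and 0.998 (*Oasl2*), and that of *Oas1c* was 0.892. Outside the members, the genes with the most similar profile among those with a mean of at least 5 FPKM were *Daxx*, *Ifitm3*, *Tap1*, *Mov10* and *Whamm*, with correlations between 0.993 and 0.997. *Daxx*, a histone chaperone, was at 147.7, 104.5 and 58.7 FPKM in the controls and at 210.8, 215.0 and 172.4 FPKM in the knockout libraries. *Ifitm3* encodes a membrane protein that blocks viral entry, *Tap1* a peptide transporter of antigen presentation and *Mov10* an RNA helicase, and none of the 5 was called in limma without the block. With the block *Daxx* and *Mov10* were called (adjusted p = 0.0424 and 0.0332), both upward, as were 3.9% of all tested genes. The 5 genes were picked for their likeness to the members in the same libraries. Their calls are therefore no result separate from that of the members. These correlations describe 6 libraries in 2 groups, which share their controls and their depth, and carry no test.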

How the data were processed

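The members and lists were chosen with earlier results of these data known. RNA of 3 knockout and 3 control PEM libraries was sequenced. The authors deposited FPKM per gene and library in 1 table. It also holds signal columns, the authors' group means of counts divided by DESeq2 size factors, and the fold change (ratio), log2 value, p-value and q-value of the authors' DESeq2 comparison, which were deposited but not used. The notes name mm9 as build, and the aligner and annotation are not given in the sources used here. Whole reads were recovered from FPKM and group means, with 100% of values within 0.01 of a whole number in each library. No per-sample column was left out.

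The fit across all genes used limma 3.58.1 (eBayes with a trend, R 4.3.3) on log2(FPKM + 1), a scale for normalized values. The filter was a mean of at least 1 FPKM in one group, with Benjamini-Hochberg adjustment and a threshold of 0.05. Fold changes on this scale understate the change of low genes. P-values measure the spread between libraries, which may be technical. Named genes were the members, the oligoadenylate arm, *Timd4*, *Lyz2*, listed genes past the threshold and the 5 most similar profiles, and genes that were not called were named after their values were seen.

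Deviations of same-numbered libraries from their group means correlated at 0.109, 0.109 and 0.304, all above 0.1, so the replicate numbers were taken as a pairing. This rests on the data alone, and other pairs of libraries reached from -0.332 to 0.291. Some items of the lists are not reported here.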

Additional observations from a re-analysis of the deposited data

How the results depend on the processing

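The alternatives were no filter on low values, at least 10 reads in every library, a pseudocount of 0.1, the replicate block, rescaling by the median of ratios, voom on the recovered reads and each library left out in turn. The direction of all 6 members was the same in all 13 fits. The number of OAS members past the threshold was 0 without the block, 4 with the replicate block (the pairing), and from 0 to 5 when 1 library was left out, the most without control library 1. Over all genes 660 passed and 855 with the block, and from 8 (without control library 2) to 1333 (without control library 3), with 30 and 63 without knockout libraries 1 and 2. Without control library 1, 788 genes passed, 278 of them upward. Rescaling moved the share of higher calls from 35.2% to 48.6% and the median change over all tested genes from -0.11 to -0.0045 (log2). In the oligoadenylate arm the number was 1, 0 with the filter of 10 reads and without a filter, and from 0 to 1 with 1 library left out. For the sensors it was 1 with the block and from 0 to 1 with 1 library left out. For interferon signaling it was 2, 3 with the block, 1 after rescaling and from 0 to 2 with 1 library left out. For the other antiviral genes it was 8 with the block and from 0 to 7. The cause of these differences was not tested. The block changed no call of *Pde12*, *Irf1*, *Stat2* or *Parp14*. Depth does not limit the members, which had at least 1139 reads in every library, whereas *Oas1c* had as few as 49.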
